A study of Homo sapiens with 8 samples.

Results

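Small nucleolar RNA (snoRNA) host genes were examined in sucrose gradient pools of leukaemia cells. They were taken as the rows of the raw gene count table whose symbol is SNHG followed by a number only, together with GAS5, DANCR, ZFAS1 and EPB41L4A-AS1. Of 78932 gene rows, 32 matched, and 29 of these reached a mean of 1 CPM (read counts scaled to a common library total, here with TMM factors) over the 8 libraries; SNHG18, SNHG22 and SNHG27 did not. All 29 passed the filter on low counts and were among the 24289 genes tested.

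SnoRNAs guide the chemical modification of ribosomal RNA. Box C/D snoRNAs direct ribose methylation and box H/ACA snoRNAs direct pseudouridylation, while the related small Cajal body RNAs act on spliceosomal RNA. In mammals most of them are cut out of introns. For many of the hosts described here, the spliced RNA left over is exported but carries only short, poorly conserved open reading frames. Several of these spliced RNAs, GAS5 and ZFAS1 among them, are known to be destroyed by nonsense-mediated decay (NMD) when they are translated. Many hosts are also known to start with a 5′ terminal oligopyrimidine (TOP) tract, a C followed by a run of pyrimidines, which links their translation to growth signals as in ribosomal protein mRNAs.

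The study asked how OGFOD1, which hydroxylates a proline of the ribosomal protein RPS23, affects translation in 2 human acute myeloid leukaemia lines, Molm13 and U937. Cells carried a lentiviral OGFOD1 overexpression vector (labelled OE) or were labelled control, with Scr in the names of the control libraries. All were treated with 100 µg/ml cycloheximide before lysis. Each sucrose gradient gave 2 pools, a heavy one of RNA with 3 or more ribosomes and a light one of ribonucleoproteins, single ribosomes (monosomes) and disomes. The 4 groups were OE heavy, OE light, control heavy and control light, each with 1 library labelled Molm13 and 1 labelled U937, and total counts ranged from 25741930 to 89373133 per library.

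Several features of the libraries bear on every value below. OGFOD1 was at 16.7 (Molm13) and 10.1 (U937) CPM in OE light and 25.3 and 12.4 CPM in OE heavy libraries, against 33.0 and 49.8 CPM in control light and 44.4 and 60.2 CPM in control heavy libraries. The target gene thus goes against the label, and "OE" below means only the library labelled so. The line labels did not separate the libraries: 0 of 24289 genes differed between them in edgeR's quasi-likelihood test (2862 at an unadjusted p under 0.05; 305 by DESeq2 and 1 by limma voom). FLT3, looked up after its values were seen, was at 91.8 to 156 CPM under the Molm13 label and 90.5 to 216 CPM under the U937 label. The Molm13 control light library stood apart. Mitochondrial genes took 2.49% of its counts, against 19.8% to 23.3% in the other 3 light libraries and 0.360% to 0.941% in the heavy ones. The median heavy minus light difference of 13 mitochondrial mRNAs, which cytosolic ribosomes do not translate, was -1.67 on the log2 scale in its gradient and -4.51 to -4.47 in the other 3. Of 10 myeloid markers, 9 or 10 reached 1 CPM in each library, and the list summed to 1392 to 2457 CPM in heavy and 828 to 1610 CPM in light libraries. Of 12 markers of other cell types, 3 or 4 reached 1 CPM in each library, and the list summed to 58.1 to 261 CPM in heavy and 44.1 to 141 CPM in light libraries; the B cell marker MS4A1 and the platelet gene PPBP had no count in any. The part of these differences in the results was not tested.

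The annotated starts of many hosts hold a TOP tract. A tract was counted where the first base was C and the next 4 or more were pyrimidines. In GENCODE 29 (GRCh38), 38 of the 289 transcripts of the described hosts began with one (13.1%), against 2.41% of all 206694 transcripts. At least 1 such transcript was annotated for 14 of the 29 genes (48.3%), against 6.58% of all genes; the hosts have more transcripts each than the average gene, which raises that share. The first 30 bases of 8 hosts follow, 5′ to 3′, with the tract in capitals; they are hosts of high level or with a tract at or next to both the GENCODE and the RefSeq start.
SNHG29, chr17:16439037-16439066, plus strand: CTTTTCattcccgttgttatggaggtaggc
GAS5, chr1:173867960-173867989, minus strand: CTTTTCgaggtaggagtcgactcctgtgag
ZFAS1, chr20:49278642-49278671, plus strand: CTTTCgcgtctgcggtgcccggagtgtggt
SNHG16, chr17:76557769-76557798, plus strand: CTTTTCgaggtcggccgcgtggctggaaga
SNHG5, chr6:85678704-85678733, minus strand: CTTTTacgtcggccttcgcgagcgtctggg
SNHG4, chr5:139274102-139274131, plus strand: CCTTTCCCCTCCggcctctgccggtgctgc
SNHG12, chr1:28581844-28581873, minus strand: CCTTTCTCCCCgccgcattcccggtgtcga
SNHG19, chr16:2155329-2155358, minus strand: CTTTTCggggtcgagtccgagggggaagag
GAS5 and SNHG16 have the same tract and the same bases just after it. Those of SNHG4 and SNHG12 hold the longest tracts printed, at 12 and 11 bases.

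RefSeq starts (GRCh38.p14), which differ from GENCODE's for many hosts, gave promoter windows for 25 of the 29. The tract lay at the start in 6 of them (24%), against 4.07% of 35116 promoters in the table, and within 5 bases of the start in 12 (48%), against 21.1%. The E-box CACGTG, searched on the 300 bases around the start and identical on both strands, was in 2 (8%), against 7.26%. Further windows of 40 bases, from 10 before the start, show hosts at both ends of the pool difference described below.
DANCR, chr4:52712384-52712423, plus strand: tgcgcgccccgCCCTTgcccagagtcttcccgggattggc
EPB41L4A-AS1, chr5:112160516-112160555, plus strand: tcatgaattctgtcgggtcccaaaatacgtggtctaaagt
SNHG17, chr20:38435299-38435338, minus strand: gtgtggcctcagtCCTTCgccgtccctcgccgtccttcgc
SNHG28, chr1:159855008-159855047, minus strand: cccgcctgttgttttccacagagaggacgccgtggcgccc
DANCR and SNHG17 hold a tract 1 and 3 bases after the start, and no such letters were found within 5 bases of the start for EPB41L4A-AS1 or SNHG28.

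Per kilobase of exon, SNHG6 was the most abundant host, with a mean of 845 CPM per kb over the 8 libraries. SNHG29 followed at 139, SNHG32 at 127, SNHG9 at 100.2 and ZFAS1 at 97.5 CPM per kb. SNHG14, the very long imprinted host of the SNORD115 and SNORD116 clusters, was at 1.79 CPM per kb. By read share 9 hosts reached a mean of 100 CPM, and the hosts together made up 1084 to 1439 CPM of the heavy libraries and 3003 to 7986 CPM of the light ones. The heavy totals lay close together, and the lowest light total was that of the Molm13 control light library.

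**Figure D1:**
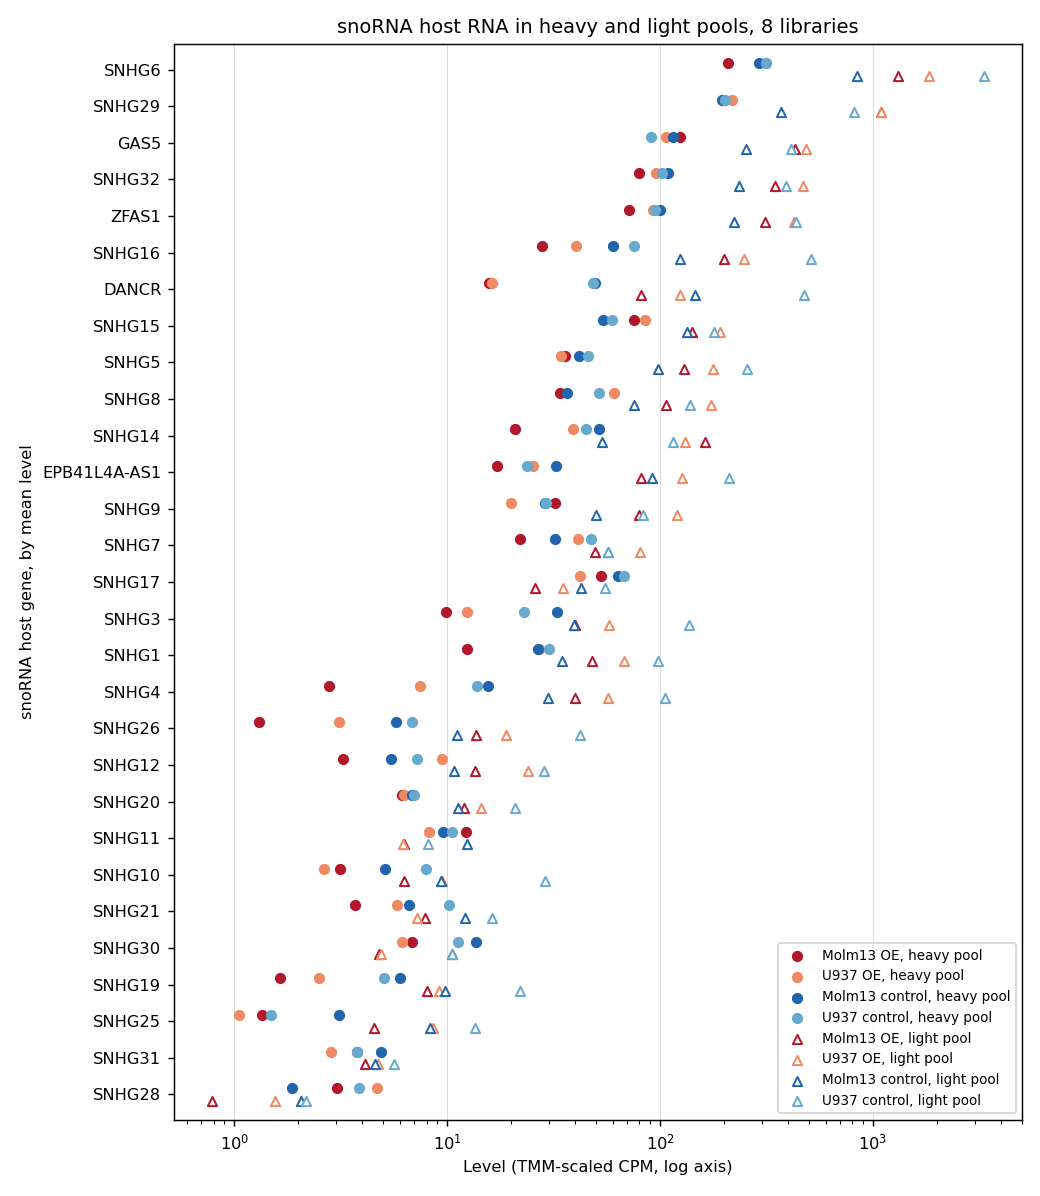
TMM-scaled CPM (log axis) of the 29 snoRNA host genes in each of the 8 libraries, ordered by mean level; filled circles are heavy pools, open triangles light pools, and colours give genotype and line label. For 22 hosts every heavy library lies left of every light library, and for SNHG17, SNHG30, SNHG11 and SNHG28 the heavy points lie mostly to the right.

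The host RNAs were lower in heavy than in light pools. Over both genotype labels, 24 of 29 fell, against 12.8% of all tested genes, and 1 (SNHG28) rose, against 15.8% (edgeR, adjusted p under 0.05). Their median log2 fold change was -1.56, against -0.04 over all tested genes. Every heavy library was below every light library for 22 hosts, against 9.81% of tested genes, and above every light library for none, against 9.12%. Heavy was below light within all 4 gradients for 24, against 21.9%. CPM is a share within a library, so these values compare a gene's share of the heavy pool with its share of the light pool and do not give the fraction of its RNA on polysomes. Upper-quartile scaling moved the median of all genes to -0.22 and made 39.7% of all calls higher in heavy, against 55.3% with TMM; the hosts' median was then -1.75, with 24 lower and 0 higher.

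SNHG6, the host of SNORD87, had heavy libraries at 208 (Molm13 OE), 313 (U937 OE), 293 (Molm13 control) and 313 CPM (U937 control), against light libraries at 1311 (Molm13 OE), 1829 (U937 OE), 843 (Molm13 control) and 3317 CPM (U937 control). All 4 heavy libraries lay within a narrow band below the lowest light library, while the light libraries spread widely. Its log2 fold change was -2.58 (SE 0.39, adjusted p = 0.000939), a 5.97-fold lower share in heavy pools. MCMDC2, on the opposite strand, shares 29.3% of the exonic bases of SNHG6 and was counted at a mean of 458 CPM with a value of -2.64, so reads in the overlap may stand in both rows.

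SNHG29, which carries SNORD49A, SNORD49B and SNORD65, was at 197 (Molm13 OE), 217 (U937 OE), 195 (Molm13 control) and 202 CPM (U937 control) in heavy pools, against 1090, 1085, 368 and 812 CPM in the light pools of the same gradients. The heavy values nearly coincided and the pools did not overlap. The difference was -1.96 (SE 0.32, adjusted p = 0.00149). LRRC75A, on the opposite strand, shares 12.0% of the exonic bases of SNHG29. It was counted at a mean of 391 CPM, beside 521 CPM for SNHG29, with a value of -1.99, so reads in that overlap may also stand in both rows.

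GAS5, named for its rise in growth-arrested cells and able to act as a decoy for the glucocorticoid receptor, was at 124 (Molm13 OE), 107 (U937 OE), 115 (Molm13 control) and 91.0 CPM (U937 control) in heavy pools, against 429, 485, 253 and 414 CPM in the light pools of those gradients. It was at a similar low level in every heavy pool, and its lowest light value, in the Molm13 control gradient, was still above the highest heavy one. The difference was -1.83 (SE 0.30, adjusted p = 0.00137).

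SNHG32, host of SNORD48 and SNORD52 and annotated as protein-coding in GENCODE 29, was at 79.6 (Molm13 OE), 95.8 (U937 OE), 109 (Molm13 control) and 102 CPM (U937 control) in heavy pools, against 348, 468, 236 and 389 CPM in the light pools. ZFAS1, transcribed next to ZNFX1 and host of the SNORD12 family, was at 71.2 (Molm13 OE), 92.6 (U937 OE), 100.0 (Molm13 control) and 95.0 CPM (U937 control) in heavy pools, against 309, 424, 223 and 434 CPM in light pools. For both genes the pools did not overlap in any gradient or across gradients. The log2 fold changes were -1.86 (SE 0.28, adjusted p = 0.00102) for SNHG32 and -1.92 (SE 0.29, adjusted p = 0.00098) for ZFAS1.

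SNHG16, host of SNORD1A to SNORD1C, was at 27.9 (Molm13 OE), 40.2 (U937 OE), 60.2 (Molm13 control) and 75.4 CPM (U937 control) in heavy pools, against 199, 247, 125 and 513 CPM in light pools. DANCR, an RNA that carries SNORA26 and is known for holding back differentiation of epidermal progenitors, was at 15.8 (Molm13 OE), 16.3 (U937 OE), 49.2 (Molm13 control) and 48.5 CPM (U937 control) in heavy pools, against 81.6, 124, 147 and 473 CPM in light pools. Both had OE heavy libraries below control heavy libraries as well as heavy below light. Their pool differences were -2.38 (SE 0.34, adjusted p = 0.000771) for SNHG16 and -2.57 (SE 0.33, adjusted p = 0.000629) for DANCR.

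SNHG15, host of SNORA9, differed less, at 75.8 (Molm13 OE), 84.7 (U937 OE), 54.2 (Molm13 control) and 59.2 CPM (U937 control) in heavy pools, against 142, 191, 134 and 179 CPM in light pools. The pools were still apart, and its log2 fold change was -1.24 (SE 0.25, adjusted p = 0.00341).

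The smallest p-values among the hosts belonged to SNHG4, SNHG26, DANCR and EPB41L4A-AS1. SNHG4, host of SNORA74A, was at 2.79 (Molm13 OE), 7.43 (U937 OE), 15.6 (Molm13 control) and 13.9 CPM (U937 control) in heavy pools, against 40.03, 57.0, 29.9 and 106 CPM in light pools; its -2.64 (SE 0.32, adjusted p = 0.000589), or 6.23-fold, was the lowest value of any host. SNHG26, which carries SNORD93, was at 1.31 (Molm13 OE), 3.11 (U937 OE), 5.72 (Molm13 control) and 6.86 CPM (U937 control) in heavy pools, against 13.7, 18.9, 11.1 and 42.2 CPM in light pools, a difference of -2.41 (SE 0.30, adjusted p = 0.000598). EPB41L4A-AS1, host of SNORA13, was at 17.1 (Molm13 OE), 25.3 (U937 OE), 32.5 (Molm13 control) and 23.7 CPM (U937 control) in heavy pools, against 81.7, 127, 91.7 and 211 CPM in light pools, a difference of -2.29 (SE 0.30, adjusted p = 0.000658). In all 3 genes the heavy libraries lay below the light ones without overlap.

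Among the other hosts called lower, SNHG25 was at -2.34, SNHG5 at -2.00, SNHG3, host of the SNORA73 pair, at -1.79, SNHG19 at -1.74 and SNHG12 at -1.56. SNHG14 was at -1.55, SNHG9 at -1.54, SNHG10 at -1.42, SNHG8 at -1.40 and SNHG20 at -1.13. SNHG1, whose introns hold a row of box C/D snoRNAs, was at -1.34. The smallest called decreases were those of SNHG7 (-0.82, adjusted p = 0.0224) and SNHG21 (-0.74, adjusted p = 0.0392). They were called in 1 and 2 of the 8 fits that left out 1 library each, and SNHG20 in 7; every other host called lower was called in all 8.

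A few hosts did not follow. SNHG17, host of the SNORA71 group, was at 52.6 (Molm13 OE), 42.2 (U937 OE), 63.6 (Molm13 control) and 67.8 CPM (U937 control) in heavy pools, against 25.7, 35.1, 42.5 and 55.3 CPM in light pools. Heavy was above light within each gradient but the pools overlapped across gradients, and the difference of 0.55 (SE 0.24, adjusted p = 0.0988) missed the threshold. SNHG30, host of SNORD7, likewise had heavy above light in all 4 gradients (0.33, SE 0.23, adjusted p = 0.313); these 2 hosts compare with 20.9% of tested genes. SNHG11 had a value of 0.35 (SE 0.25, adjusted p = 0.312) and SNHG31 one of -0.34 (SE 0.27, adjusted p = 0.368), each with 1 gradient of the opposite sign.

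SNHG28 was the only host called higher in heavy pools. It was at 3.04 (Molm13 OE), 4.69 (U937 OE), 1.86 (Molm13 control) and 3.84 CPM (U937 control) in heavy pools, against 0.791, 1.55, 2.06 and 2.16 CPM in light pools. Heavy was above light in all gradients but Molm13 control, and the pools overlapped. Its log2 fold change was 1.04 (SE 0.31, adjusted p = 0.0240), called in 3 of 8 fits that left out a library. All of its exonic bases lie in another annotated gene with no symbol here, so its reads cannot be assigned to SNHG28 alone.

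**Figure D2:**
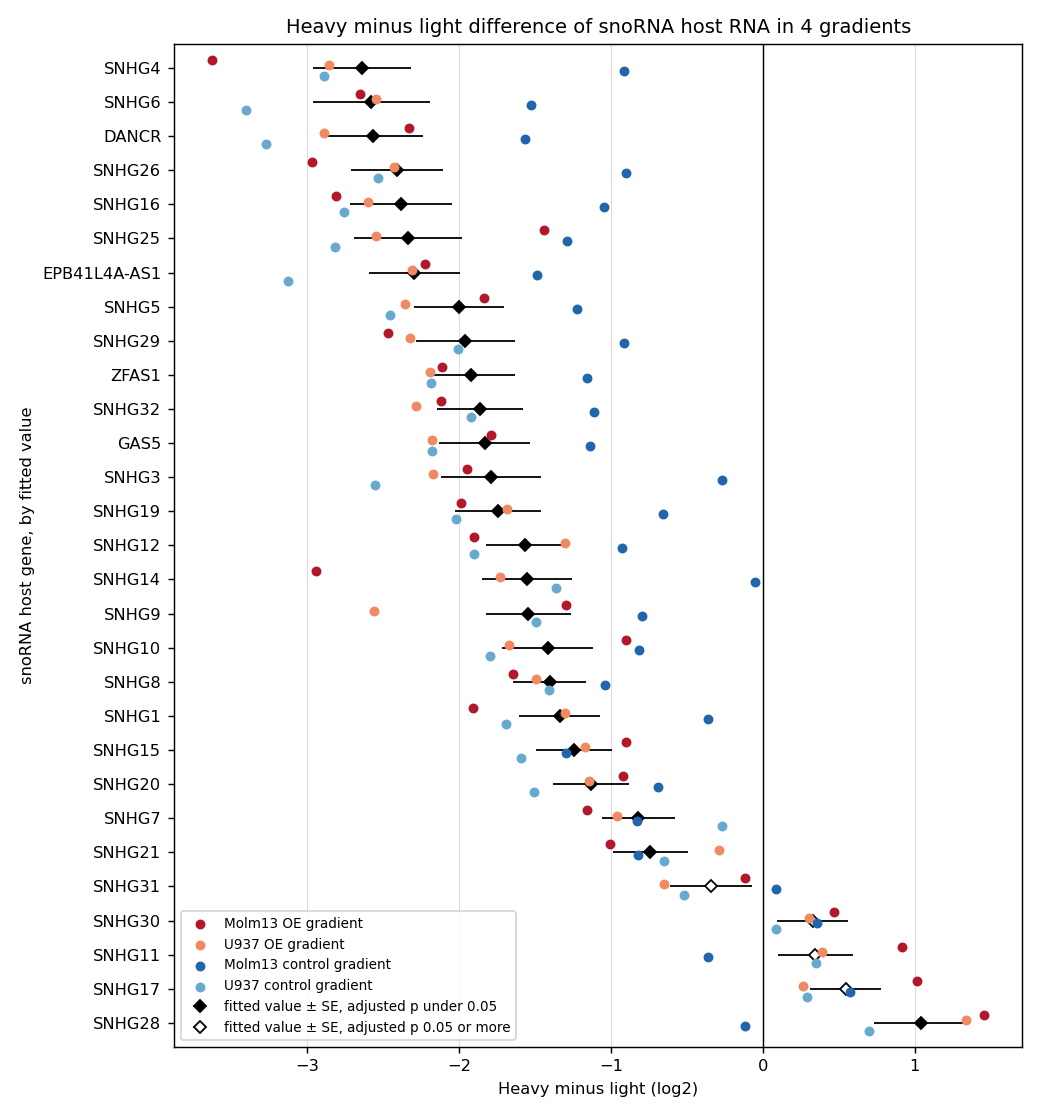
Heavy minus light difference (log2) of each host in the 4 gradients (coloured points, log2 of CPM + 0.5) and fitted over all 8 libraries (diamonds, ± SE; filled where the edgeR adjusted p is under 0.05), ordered by fitted value. For 24 hosts all 4 gradients lie below 0, and the Molm13 control gradient gives the point nearest 0 for 21 of these.

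The median difference over the hosts was below 0 in all 4 gradients, at -1.84 in the Molm13 OE gradient, -1.73 in U937 OE, -0.90 in Molm13 control and -1.90 in U937 control, on the scale of log2(CPM + 0.5). The medians of all tested genes lay between -0.03 and 0.04. SNHG14 had the widest range, at -2.94, -1.73, -0.05 and -1.36 in those gradients, and SNHG8 one of the narrower ones, at -1.64, -1.49, -1.04 and -1.40. For 21 of the 24 hosts below 0 in every gradient, the difference nearest 0 was that of Molm13 control, the gradient whose light library held the low mitochondrial share.

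In OE gradients alone, 22 hosts fell and 1 rose, against 8.1% and 12.9% of tested genes, with a median of -1.98. In control gradients alone, 4 hosts fell (DANCR, EPB41L4A-AS1, SNHG5 and SNHG6) and none rose, against 0.873% and 0.206%, with a median of -1.45. Without the Molm13 control light library, 22 hosts fell in the control gradients, against 5.91% of tested genes, and the median was -1.75; the remaining control light library was then assumed to vary as the other groups do. The calls over all genes moved with the library left out, and the host counts moved with them. With all libraries 262 genes were called in either direction in the control gradients. Without the Molm13 control heavy, U937 control heavy or U937 OE heavy library the fits called 0, 1 and 74 genes, and no host among them. Without Molm13 OE heavy, 2 hosts and 128 genes were called, and without the Molm13 or U937 OE light library 9 hosts each, of 653 and 687 genes. DESeq2 called 20 hosts and 1891 genes, and limma voom 13 hosts and 622 genes. In the OE gradients 5109 genes were called with all libraries. There, 6 hosts and 332 genes were called without Molm13 OE light, 7 hosts and 1102 genes without Molm13 OE heavy, and none of either without U937 OE heavy. With all libraries, no host had a heavy minus light difference that differed between OE and control gradients in the edgeR interaction test. At an unadjusted p under 0.05 there were 3 hosts, and DESeq2 and limma voom called 0. None of the 24289 genes was called by edgeR either (0%, and 4 genes by DESeq2), but some were when the U937 control light library was left out.

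Over both genotype labels and without the Molm13 control light library, 23 hosts fell and 1 rose, against 15.6% and 20.2% of tested genes, with a median of -1.73. All 24 were among the 25 called with it.

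Reads shared with other genes bear on these values. TALAM1, which lies antisense to MALAT1, had 99.95% to 99.98% of the MALAT1 count in each library. Reads of that overlap were therefore counted for both genes without regard to strand. Other overlaps may have been counted in the same way, which was not tested. Of the 29 hosts, 11 share no exonic base with another GENCODE 29 gene, and 8 of these fell, with a median of -1.40. Another 11 share under 25%, and 10 of these fell, with a median of -1.79. The other 7 share more, and 6 of these fell, with a median of -1.92. For some hosts the overlapping gene had the more counts. SNHG10 was at a mean of 9.09 CPM and shares 20.1% of its exonic bases with GLRX5. GLRX5, on the opposite strand, was at 127 CPM and -1.34. The overlapping gene also had the more counts for SNHG3, SNHG4, SNHG12, SNHG20 and SNHG28. MATR3, which overlaps SNHG4 on the same strand, was at a mean of 152 CPM and -1.2. The others did not fall: RCC1 (overlapping SNHG3) was at -0.03, SEC14L1 (SNHG20) at -0.27 and TRNAU1AP (SNHG12) at 0.60, none past the threshold. The gene that covers SNHG28 was called higher in heavy pools, at 0.87.

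Hosts with a TOP tract at the RefSeq start had values of -2.64 to -1.56 with a median of -1.89 over 6 genes: SNHG4, SNHG5, ZFAS1, SNHG32, SNHG19 and SNHG12. Those with a tract within 5 bases but not at the start ranged from -2.57 (DANCR) to 0.55 (SNHG17), with a median of -1.11 over 6 genes. The 13 with none ranged from -2.41 (SNHG26) to 1.04 (SNHG28), with a median of -1.42. GAS5, SNHG29, SNHG1, SNHG3 and SNHG11 fall among these 13 by their RefSeq starts although at least 1 GENCODE transcript of each begins with a tract. Those of GAS5 and SNHG29 are printed above.

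By the RNA hosted in GENCODE 29, 10 of 11 hosts of box C/D snoRNAs alone fell, with a median of -1.92. Of 11 hosts of box H/ACA snoRNAs alone 8 fell, with a median of -1.40. The hosts of small Cajal body RNAs, SNHG10, SNHG20 and SNHG21, all fell, with a median of -1.13. The kinds overlapped, with SNHG4 (-2.64) the lowest of the H/ACA hosts and SNHG30 (0.33) the highest of the C/D hosts, and the differences between kinds were not tested. GENCODE 29 lists no snoRNA within GAS5, which is known to carry several, so the sorting is incomplete.

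The snoRNAs themselves were barely represented. Of 144 snoRNA rows lying inside host genes, 86 had a count and 2 reached a mean of 1 CPM. These were SNORD49B (6.92 CPM) and SNORD49A (1.05 CPM), which lie wholly within annotated exons of SNHG29, so their reads cannot be told from those of the host RNA. SNORD49B was at 2.20 (Molm13 OE), 2.45 (U937 OE), 2.18 (Molm13 control) and 1.42 CPM (U937 control) in heavy pools, against 16.1, 19.6, 4.21 and 7.15 CPM in light pools. It was lower in every heavy library, with a fitted difference of -2.28 beside the host's -1.96. SNORD49A had a fitted difference of -1.72, but its pools overlapped, with 0.966 CPM in Molm13 control heavy against 0.784 CPM in Molm13 control light.

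Related gene lists were read against the same shares of all tested genes, 12.8% lower and 15.8% higher in heavy pools, and the same median of -0.04. Of mRNAs of proteins that bind snoRNAs (core), 4 of 8 rose and none fell, with a median of 0.82. Of those that assemble the particles, 4 of 12 rose and none fell, with a median of 0.65. GAR1 (1.66) and DKC1 (1.60), both of the H/ACA particle, and TCOF1 (1.73) and RUVBL1 (1.49) rose. Of 15 NMD factors and exon junction proteins 7 rose and none fell, with a median of 0.62, among them MAGOH (1.80), UPF3B (1.40) and RBM8A (1.67). Of 51 protein-coding snoRNA hosts 15 fell and 5 rose, with a median of -0.42; IPO7 (-2.06) and RPS20 (-2.18) fell and DKC1 rose.

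Of 22 TOP mRNAs other than RPL and RPS genes, 15 fell and none rose, again against 12.8% and 15.8% of tested genes, with a median of -1.36; the poly(A)-binding protein genes PABPC1 (-3.15) and PABPC4 (-2.61) and the initiation factor EIF2S3 (-1.98) fell. Of 14 other long noncoding RNAs tested, 10 fell and none rose, with a median of -1.45, among them JPX (-2.11), NEAT1 (-2.66) and CRNDE (-2.33). Without the Molm13 control light library the medians were 1.09 for core, 0.52 for assembly and 0.70 for NMD genes, -0.45 for protein-coding hosts, -1.57 for TOP mRNAs and -1.48 for long noncoding RNAs. Calls then were none lower and 5 higher for core, none lower and 4 higher for assembly, and 1 lower and 8 higher for NMD genes. They were 22 lower and 5 higher for protein-coding hosts, 17 lower and 1 higher for TOP mRNAs, and 12 lower and none higher for long noncoding RNAs. The shares of all tested genes were then 15.6% lower and 20.2% higher. Some genes stand in more than 1 list, as DKC1 does, and the differences between lists were not tested.

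**Figure D3:**
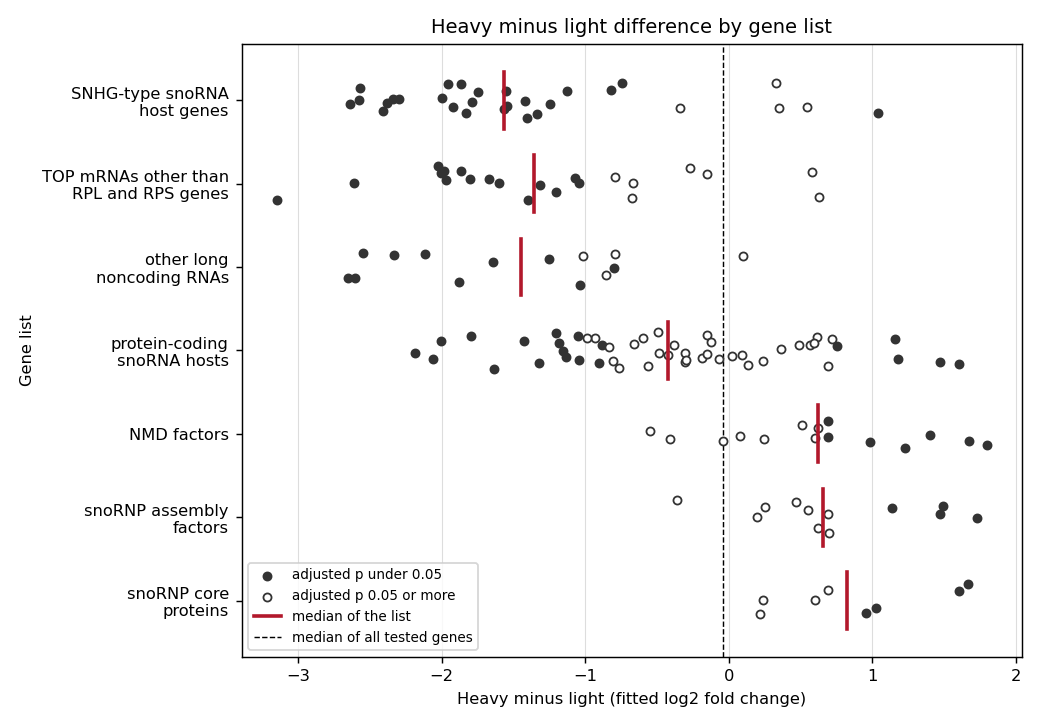
Fitted heavy minus light log2 fold change of each tested gene in 7 lists (points; filled where the edgeR adjusted p is under 0.05), with the median of each list (red bar) and of all tested genes (dashed line). The SNHG-type hosts, TOP mRNAs and other long noncoding RNAs have medians of -1.56, -1.36 and -1.45, and the snoRNP and NMD lists have medians from 0.62 to 0.82.

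The genotype labels moved fewer hosts. Over both pools, 3 of 29 were lower in libraries labelled OE than in control libraries, against 2.36% of tested genes, and none was higher, against 2.01%; in either direction that is 3 hosts, against 4.37%. The median was -0.30, against -0.05 over all tested genes. As in any bulk sample, fewer cells of a type and less RNA per cell cannot be told apart. The fit treats both pools of 1 gradient as separate libraries. When they were added together first, leaving 4 gradients, edgeR called neither a host nor any other gene (0 each, with 4278 genes at an unadjusted p under 0.05). Upper-quartile scaling made 61.0% of all calls higher in OE, against 45.9% with TMM, and again called 3 hosts lower.

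DANCR, whose levels by library are given above, was below its matched control in all 4 pairs, at -1.61 (Molm13 heavy), -1.55 (U937 heavy), -0.84 (Molm13 light) and -1.93 (U937 light) on the log2 scale. It averaged 16.0 ± 0.33 CPM in OE heavy and 48.9 ± 0.49 CPM in control heavy libraries (SD, n = 2 each), and in light pools both OE libraries were also below both control libraries. The fitted difference was -1.56 (SE 0.32, adjusted p = 0.0231). It was called in 6 of 8 fits that left out a library, missing the threshold without Molm13 control heavy (adjusted p = 0.0665) and without U937 OE heavy (0.202), and had a value of -1.37 (adjusted p = 0.116) with pools summed.

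SNHG30 was at 6.80 (Molm13) and 6.15 CPM (U937) in OE heavy libraries, against 13.7 and 11.2 CPM in control heavy ones, and at 4.76 and 4.88 CPM in OE light libraries, against 10.6 and 10.5 CPM in control light ones. Every OE library lay below every control library. The difference was -1.03 (SE 0.23, adjusted p = 0.0323), with a range of -1.12 to -0.98 when 1 library was left out, called in 2 of those 8 fits. SNHG19, host of SNORD60, was at 1.65 and 2.50 CPM in OE heavy libraries, against 6.01 and 5.08 CPM in control heavy ones, and at 8.01 and 9.13 CPM in OE light libraries, against 9.77 and 22.1 CPM in control light ones. OE was lower in each pair, least in the Molm13 light pair. The difference was -1.15 (SE 0.28, adjusted p = 0.0397), called in 3 of 8 fits that left out a library. With pools summed the adjusted p was 0.158 for SNHG30 and 0.244 for SNHG19.

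SNHG10 was next, at -1.14 (SE 0.30, adjusted p = 0.0501). SNHG26 (-1.07, adjusted p = 0.0574), SNHG21 (-0.85, adjusted p = 0.0684), SNHG3 (-1.08, adjusted p = 0.0700) and SNHG4 (-1.02, adjusted p = 0.0735) lay close behind, none past the threshold. Without the Molm13 control light library 10 hosts were called lower, against 5.96% of tested genes, and none higher: DANCR, SNHG3, SNHG4, SNHG10, SNHG16, SNHG19, SNHG21, SNHG25, SNHG26 and SNHG30. Leaving out U937 OE light gave 1 host of 525 genes called in either direction, against 1061 genes with all libraries. Leaving out U937 OE heavy or Molm13 control heavy gave 0 hosts, of 18 and 589 genes called.

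Apart from DANCR, described above, the most abundant hosts had values on both sides of 0, and none of these passed the threshold. SNHG6 had -0.25 (SE 0.36, adjusted p = 0.733), ZFAS1 -0.05 (SE 0.28, adjusted p = 0.946), SNHG32 0.06 (SE 0.27, adjusted p = 0.931) and SNHG16 -0.66 (SE 0.32, adjusted p = 0.249). The highest fitted values were those of SNHG29 (0.50, SE 0.31, adjusted p = 0.378), GAS5 (0.31, SE 0.29, adjusted p = 0.571), SNHG15 (0.29, SE 0.24, adjusted p = 0.524) and SNHG8 (0.23, SE 0.24, adjusted p = 0.609). The sign for SNHG6 and SNHG32 turned when 1 library was left out, and that for ZFAS1 also under upper-quartile scaling. OE was below control in all 4 pairs for 8 hosts, against 14.4% of tested genes, and above it in all 4 for SNHG29, GAS5 and SNHG15, against 11%.

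Within single pools no host was called. In the heavy pool edgeR called 0 hosts (9 at an unadjusted p under 0.05), against 0.00412% of tested genes, with a median of -0.40. DESeq2 called 4 hosts and 1003 genes there, and limma voom 0 hosts and 102 genes. In the light pool edgeR called 0 (4 at an unadjusted p under 0.05), against 0%, with a median of -0.25. DESeq2 called 1 host and 930 genes there, and limma voom 0 of each. The heavy pool pairs had medians of -0.53 (Molm13) and -0.33 (U937), and the light pool pairs 0.09 (Molm13) and -0.52 (U937). The only pair with a positive median was the one that contains the Molm13 control light library. Without that library 6 hosts were called lower in the heavy pool, against 2.56% of tested genes, and 3 in the light pool, against 1.1%.

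**Figure D4:**
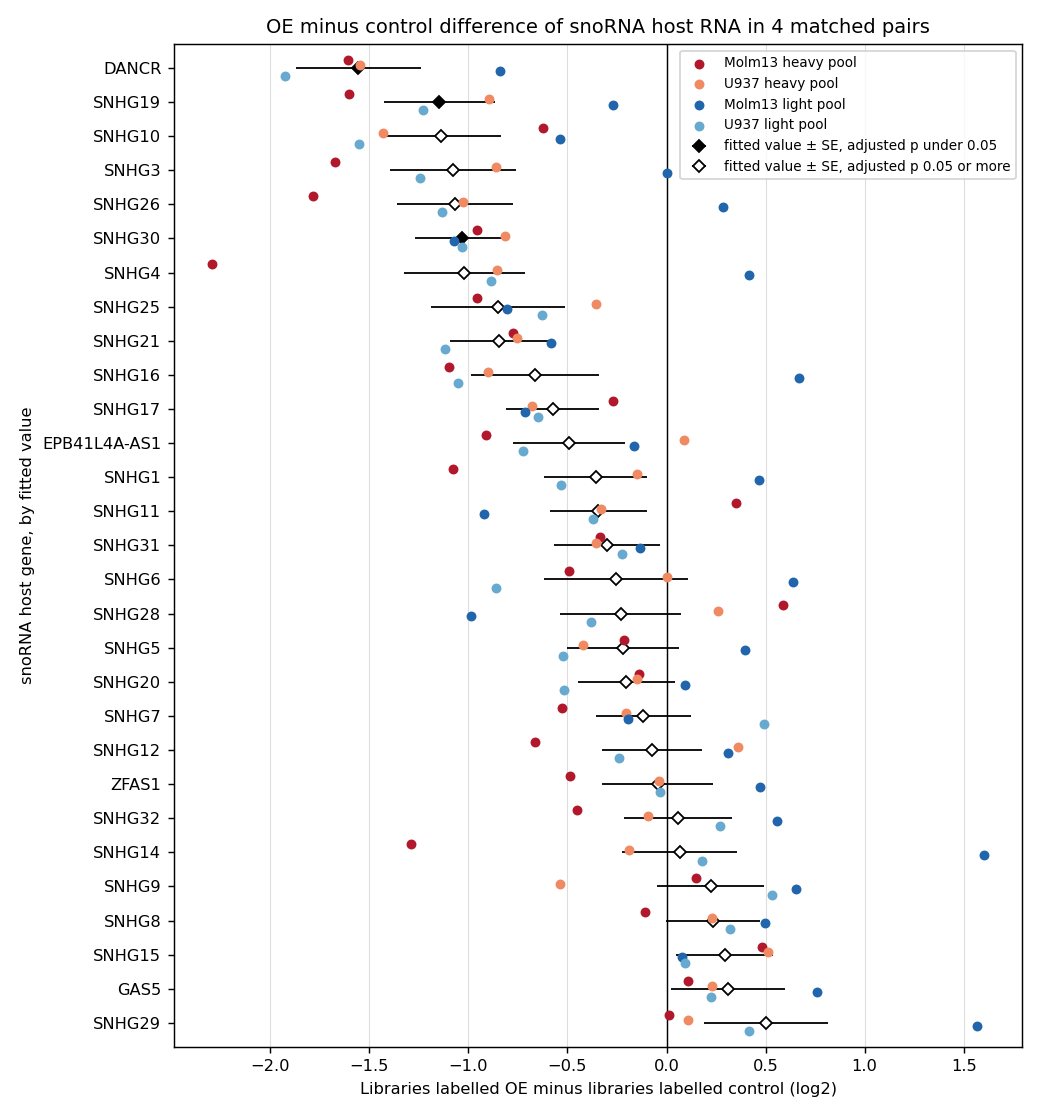
Difference (log2) between libraries labelled OE and libraries labelled control for each host in the 4 matched pairs (coloured points, log2 of CPM + 0.5) and fitted over both pools (diamonds, ± SE; filled where the edgeR adjusted p is under 0.05). DANCR, SNHG19 and SNHG30 are called and have all 4 pairs below 0, and the Molm13 light pair (dark blue) often lies furthest to the right.

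In the lists, calls between the genotype labels were few, against 2.36% of tested genes lower and 2.01% higher in OE. One of 8 core genes fell (GAR1, -1.35), with a median of -0.75, and 3 of 12 assembly genes fell (TCOF1, -1.45; NOLC1, -1.40; RUVBL1, -1.02), with a median of -0.82. Of the NMD list 2 of 15 fell (UPF1, -1.03; MAGOH, -1.18), and of the protein-coding hosts 2 of 51 (TNPO2, -0.98; WDR43, -0.90), a share near that of all tested genes. No gene of these 4 lists rose. None of the 22 TOP mRNAs or 14 long noncoding RNAs was called in either direction, with medians of 0.11 and 0.07.

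Between line labels edgeR called no host (9 at an unadjusted p under 0.05), against 0% of tested genes. DESeq2 called 1 host and 305 genes, and limma voom 0 hosts and 1 gene. Of the 29, 26 had lower values under the Molm13 label, with a median of -0.43, while the median of all tested genes was near 0, and 10 were lower in all 4 matched pairs, against 11%, and none higher in all 4, against 9.21%. SNHG12 had the smallest p, at -1.04 (SE 0.26, adjusted p = 0.267). The matched pairs had medians of -0.30 in OE heavy, -0.45 in OE light, -0.05 in control heavy and -0.96 in control light, the last being the pair with the Molm13 control light library; without that library the fitted median was -0.22.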

How the data were processed

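RNA from heavy and light gradient pools was sequenced in 8 libraries prepared with a Smart-seq kit, per the labels' protocols. The authors deposited 1 table of raw read counts per Ensembl gene ID, and each column was matched to a sample by name. The submitters' processing notes name cutadapt, STAR, featureCounts and GRCh38; tool versions, strand setting and annotation release were not given in the sources used here. Symbols were looked up by gene ID; positions, exons and hosted snoRNAs came from GENCODE 29, which may differ from the authors' annotation.

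Counts were tested with edgeR 4.0.16 (R 4.3.3), using TMM scaling, filterByExpr with a minimum count of 10, group plus line label as terms (3 residual degrees of freedom) and the quasi-likelihood test. P-values were adjusted over all 24289 tested genes (Benjamini-Hochberg), and those under 0.05 were called. CPM values were computed here with TMM scaling. Differences within a gradient or matched pair are log2(CPM + 0.5) of single libraries, with no test. Per-library depth of 25741930 to 89373133 counts limits the precision of hosts near 1 CPM. Replicates of a group carry different line labels, nothing describes separate cultures, so p-values reflect only how these libraries vary, which may be technical. No 2 libraries of a group agreed within sampling noise (chi-square over its degrees of freedom of at least 67.5).

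Alternatives were RLE and upper-quartile scaling, no filter on low counts, DESeq2 1.42.0, limma voom (limma 3.58.1), other blocks, another pseudocount, CPM without TMM, and leaving out each library. The line labels pair libraries across groups by design; deviations of libraries with the same label from their group means correlated at 0.0169 to 0.338 over 6 pairs of groups. Scripts were tested on simulated data. Hosts were named by level, p-value and direction: full statistics for the 8 of highest mean CPM and up to 4 of smallest p in each direction per contrast, and up to 3 members of smallest p for other lists. The hosts and lists were chosen with earlier results of these data known.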

Additional observations from a re-analysis of the deposited data

Results flagged for a closer look

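For 3 hosts the difference between OE and control libraries had one sign under both line labels in the heavy pool and the opposite sign under both in the light pool. SNHG32 averaged -0.27 in the heavy pool and 0.41 in the light pool, a difference of -0.69 on the log2 scale. SNHG14 averaged -0.74 in the heavy pool and 0.89 in the light pool, a difference of -1.63. SNHG28 averaged 0.42 in the heavy pool and -0.68 in the light pool, a difference of 1.11. The edgeR interaction term, which tests this difference, gave adjusted p-values of 0.829 for SNHG32, 0.791 for SNHG14 and 0.791 for SNHG28, none past the threshold.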

How the results depend on the processing

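Over both genotype labels, the hosts called between heavy and light pools numbered 25 and stayed at 21 to 25 under every alternative run, with medians of -1.78 to -1.36; the gradient as replicate block gave 25 and leaving the line label out as a block gave 22. Other counts moved by more than 1.5 times. In control gradients (4) they were 7 with RLE factors, 11 with upper-quartile scaling, 16 without a filter, 20 with DESeq2, 13 with limma voom, 9 with the gradient as replicate block, 0 with no replicate block, and 0 to 22 with 1 library left out. In OE gradients (23) they were 0 to 24 with 1 library left out. For OE minus control over both pools (3) they were 8 without a filter and 8 with DESeq2, 0 with no replicate block, 0 with the pools of a gradient summed as replicate block, and 0 to 10 with 1 library left out. In the heavy pool (0) they were 5 without a filter and 4 with DESeq2. In the light pool (0) there was 1 with DESeq2, and between line labels (0) there was 1 without a filter and 1 with DESeq2. Host counts in each pool and for the interaction (0) also moved with 1 library left out, and so did the calls over all genes in those contrasts. Without U937 control light, edgeR called genes for the interaction, most of them positive. Calls over all genes moved too, also with 1 library left out. In control gradients they were 262, then 455 with upper-quartile scaling, 1288 without a filter and 1891 with DESeq2. For OE minus control over both pools they were 1061, then 2299 without a filter, 2679 with DESeq2 and 116 with no replicate block. The heavy pool had 1, 1039 without a filter and 1003 with DESeq2. The light pool had 0, and 930 with DESeq2. Line labels had 0, 412 without a filter and 305 with DESeq2. The causes were not tested.

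Among the hosts given full statistics the OE minus control sign turned for 3, none past the threshold in any fit. Leaving out 1 library also turned it for SNHG5 (-0.49 to 0.10), SNHG7 (-0.30 to 0.07) and SNHG9 (-0.09 to 0.46). The same held for SNHG12 (-0.29 to 0.14) and SNHG14 (-0.20 to 0.34). With 1 library left out, SNHG6 ranged from -0.58 to 0.20 (above 0 without Molm13 control heavy or U937 control light), SNHG32 from -0.10 to 0.20 (below 0 without Molm13 control light or U937 control heavy) and ZFAS1 from -0.22 to 0.14 (above 0 without Molm13 control heavy or U937 control light). ZFAS1 was at 0.028 with upper-quartile scaling and 0.18 with pools summed as replicate block. Per-gradient medians kept their sign with a pseudocount of 2 and without TMM. With 2 libraries per group, an arm reduced to 1 library is assumed to vary like the other groups.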
